A study of Mus musculus with 28 samples.

Results

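The transcriptome of tibialis anterior (TA) muscle was compared between tamoxifen-treated and placebo-treated mice that carry the S619L change in dynamin 2, with 4 mice in each group, taken by their labels and making up 8 of the 28 mice of the series. These Dnm2 S619L/+ mice (Dnm2SL) are heterozygous knock-in mice, so that the placebo group carries the mutation as well, and in every tissue. All mice were C57BL/6N animals aged 8 weeks, and tamoxifen was given with the diet. RNA was poly-A selected and sequenced in bulk. Alongside them stand 4 WT placebo and 4 WT tamoxifen mice of the same cohort, which entered the fit. A separate cohort holds Bin1 mck-/- mice (Bin1KO), whose Bin1 deletion is specific to muscle, with 4 tamoxifen and 4 placebo animals. In bulk muscle, fewer cells of a type and less RNA per cell cannot be told apart.

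Dynamin 2 is a GTPase that pinches membranes off during endocytosis and trafficking, and it also acts on the membrane tubules that muscle fibers use for excitation. Dominant mutations in it cause centronuclear myopathy (CNM), in which fibers are weak and their nuclei lie away from the periphery. Tamoxifen is a selective estrogen receptor modulator, which opposes estrogen in the breast and acts largely as an agonist in bone. The question of the comparison is which muscle genes change when mice with this form of CNM receive the drug.

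Some libraries stood apart and bear on the results that follow. The labels give no sex, but Xist, which is transcribed from the inactive X chromosome, was between 148 and 161 CPM (counts scaled to a fixed library total) in all 4 tamoxifen mice and was 156 CPM in placebo mouse 1 and 163 CPM in placebo mouse 4. In placebo mice 2 and 3 Xist was at 0.0960 and 0.0453 CPM, whereas the Y-linked Ddx3y was at 63.0 and 74.3 CPM. Treatment and presence of Xist therefore overlap in part, and results are also given with Xist as a covariate. Tamoxifen mouse 4 was the lowest of the 4 treated mice in 720 of the 806 genes found higher (89.3%). Placebo mouse 2 was the highest of the 4 placebo mice in 288 of the 471 genes found lower (61.1%). Placebo mouse 4 held 2097 CPM of 25 interferon response genes together, against 146 to 190 CPM in the other placebo mice. Libraries held between about 21520200 and 41940000 counts in the placebo group and between about 21588900 and 33651800 in the tamoxifen group. The tissue label was borne out by fast fiber genes such as Acta1, Ckm and Myh4, whose list of 14 summed to between 140820 and 207370 CPM in placebo mice and between 118732 and 196682 CPM in tamoxifen mice.

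Of 15439 genes tested, 1277 (8.27%) differed between tamoxifen and placebo at a Benjamini-Hochberg adjusted p under 0.05 in edgeR's quasi-likelihood test, and such genes are referred to as called. Genes called higher numbered 806 (5.22% of those tested) and genes called lower 471 (3.05%). The rises were the larger: the median log2 fold change was 1.53 among genes called higher and −0.56 among genes called lower, 281 genes rose by more than 2 on the log2 scale and 35 fell by more than 2. Over all genes tested the median was −0.03. The values of the 4 treated and the 4 placebo mice did not overlap in 357 of the 806 genes called higher and in 370 of the 471 called lower, while over all genes tested 4.02% did not overlap with the treated mice above and 6.37% with the treated mice below. The fit took its spread from all 16 mice of the cohort. With only the 8 Dnm2SL mice, where 14310 genes passed the filter, 30 (0.21%, with 0.14% higher and 0.0699% lower) were called, all of which were also called with the 16. With only the Dnm2SL mice but without tamoxifen mouse 4, a fit chosen after seeing the data, 1724 (11.8%) were called. With Xist as a covariate 481 genes (3.12%) were called, 1.99% of those tested higher and 1.13% lower, of which 452 were also called without it. Across leave-one-out fits, each of which dropped 1 of the 16 mice, the count ran from 368 without tamoxifen mouse 3 to 2562 (16.4%) without tamoxifen mouse 4, where 10.2% were higher and 6.18% lower, with 551 without placebo mouse 2 and 767 (4.91%, of which 3.23% higher and 1.68% lower) without placebo mouse 4, and 350 genes (280 higher, 70 lower) were called in all 16 of these fits.

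The 2 genes with the smallest p-values lay together on chromosome 19. Flrt1, which encodes a transmembrane adhesion protein that binds fibroblast growth factor receptors, Unc5 receptors and latrophilins, was at 2.14, 0.672, 0.815 and 0.475 CPM in placebo mice 1 to 4. In tamoxifen mice 1 to 4 it was at 35.5, 21.3, 30.2 and 44.3 CPM. Every treated mouse thus lay far above every placebo mouse, tamoxifen mouse 4 being the highest, and the log2 fold change was 4.82 ± 0.44 (SE, adjusted p = 9.08e-05). AC109619.1, an unnamed noncoding RNA, was at 0.834, 0.768, 0.588 and 0.396 CPM under placebo and at 16.7, 10.9, 14.2 and 15.9 CPM under tamoxifen. It also rose in all 4 treated mice, by 4.34 ± 0.20 (adjusted p = 2.83e-09). In the GENCODE M21 annotation (build GRCm38), AC109619.1 follows Flrt1 on the same strand after a gap of 3579 bases, and both lie inside Macrod1, a gene of the opposite strand for a mono-ADP-ribosyl hydrolase. Macrod1 itself, looked up after its neighbours' values were seen, was at 155, 167, 160 and 132 CPM under placebo and at 173, 165, 160 and 241 CPM under tamoxifen (log2 fold change 0.26 ± 0.22, adjusted p = 0.485). The strand on which reads were counted is not given in the sources used here. Both neighbours rose in WT mice too, Flrt1 by 5.40 ± 0.45 and AC109619.1 by 5.71 ± 0.21, and in Bin1KO mice by 6.13 ± 0.54 and 7.60 ± 0.56.

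Called in all 29 alternative fits of the comparison were 5 genes: Flrt1, C1qtnf3, Micall2, Meg3 and Rasd2. A gene without a value in a fit counted as not called there. AC109619.1 and Efhc2 had a value in 28 of these fits and were called in all 28. C1qtnf3, a secreted relative of adiponectin that cartilage and fat make, was at 0.383, 0.336, 0.634 and 0.475 CPM under placebo and at 11.4, 16.1, 21.1 and 3.46 CPM under tamoxifen. Tamoxifen mouse 4 was again the lowest of its group but above all placebo mice, and the gene rose by 4.68 ± 0.54 (adjusted p = 0.000546). Micall2, whose product links Rab13 to actin at cell junctions, was at 2.05, 1.58, 2.99 and 1.42 CPM under placebo and at 16.6, 9.17, 8.95 and 9.35 CPM under tamoxifen. Here tamoxifen mouse 1 stood above the other 3, which lay close together, and the rise was 2.42 ± 0.29 (adjusted p = 0.000546). In WT mice Micall2 was at 2.27 ± 0.783 CPM (SD, n = 4) under placebo and 1.62 ± 0.212 under tamoxifen, and the effects in the 2 genotypes differed by 2.95 ± 0.40 (adjusted p = 0.0115 for the difference by edgeR). Rasd2, a small GTPase known from the striatum, fell in all treated mice: it was at 7.96, 8.45, 4.84 and 6.53 CPM under placebo and at 1.84, 1.67, 1.64 and 1.27 CPM under tamoxifen (log2 fold change −2.08 ± 0.31, adjusted p = 0.00226).

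Meg3 belongs to an imprinted cluster of noncoding RNAs on chromosome 12, expressed from the maternal copy, in which Rian and Mirg follow on the same strand. Meg3 was at 65.7, 44.9, 74.5 and 50.3 CPM in placebo mice and at 161, 154, 189 and 194 CPM in tamoxifen mice, a rise of 1.57 ± 0.25 (adjusted p = 0.00339). Mirg rose from between 1.70 and 2.85 CPM to between 6.66 and 12.9 CPM (1.99 ± 0.40, adjusted p = 0.00820). Rian rose from between 15.02 and 47.7 CPM to between 80.9 and 123 CPM (1.68 ± 0.42, adjusted p = 0.0253), a call that was lost without placebo mouse 2 or 4 or tamoxifen mouse 2 or 3 (adjusted p up to 0.0718). For all 3 RNAs the groups did not overlap, and tamoxifen mouse 4 was the highest treated mouse. Apart from this cluster, Nek6, a mitotic kinase, was at 5.41, 5.81, 7.29 and 8.15 CPM under placebo and at 14.8, 15.9, 17.4 and 15.03 CPM under tamoxifen (1.24 ± 0.15, adjusted p = 0.000679). Efhc2, an EF-hand protein of the X chromosome, rose from between 0.136 and 0.225 CPM to between 1.28 and 1.76 CPM (2.75 ± 0.35, adjusted p = 0.000546).

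Among the genes that fell with little spread, Ldhd, the mitochondrial D-lactate dehydrogenase, was at 89.1, 100.3, 102 and 87.1 CPM under placebo and at 47.8, 47.5, 48.7 and 59.2 CPM under tamoxifen. The groups lay well apart, with a log2 fold change of −0.90 ± 0.10 (adjusted p = 0.000546). Cpe, the carboxypeptidase that trims prohormones, was at 559, 672, 464 and 602 CPM under placebo and at 326, 264, 275 and 284 CPM under tamoxifen (−0.998 ± 0.13, adjusted p = 0.000982). Popdc2, a cyclic AMP-binding membrane protein of heart and skeletal muscle, fell from between 89.9 and 120 CPM to between 46.8 and 65.1 CPM (−0.94 ± 0.14, adjusted p = 0.00220). These 3 genes, Nek6, Efhc2 and Meg3 were called in each fit that left out 1 mouse. Nek6, Efhc2, Ldhd, Cpe and Popdc2 were named after their values had been seen.

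**Figure D1:**
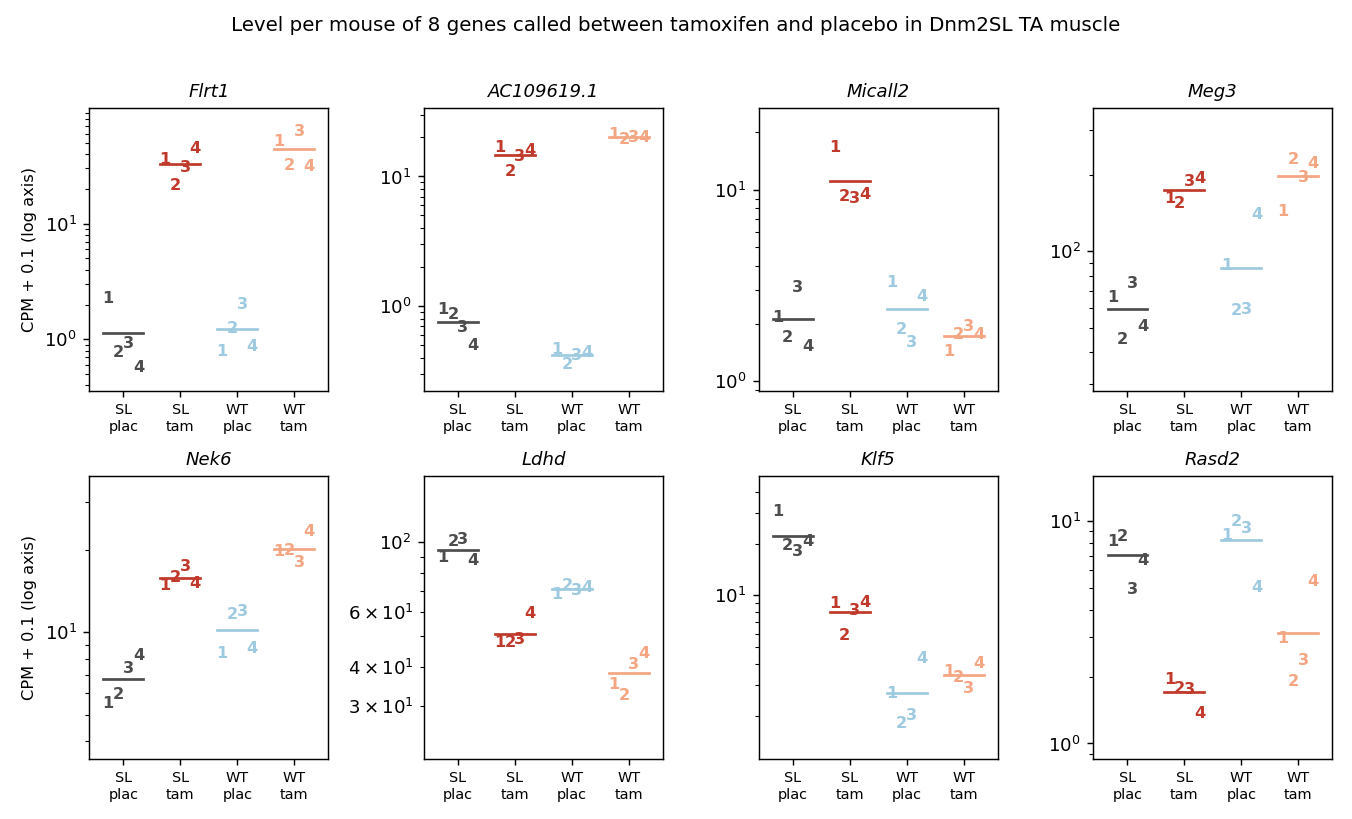
CPM + 0.1 on a log axis for 8 called genes in each mouse; digits are the mouse numbers within Dnm2SL placebo, Dnm2SL tamoxifen, WT placebo and WT tamoxifen, and lines are group means. All 4 treated Dnm2SL mice lie on 1 side of all 4 placebo mice in each panel, and Micall2 is at 8.95 to 16.6 CPM in treated Dnm2SL mice but at 1.62 ± 0.212 CPM in treated WT mice.

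Genes of bone-forming cells made up the largest rises, and they rose in 3 of the 4 treated mice by far more than in the last. Of the 14 tested members of a list of osteoblast and osteocyte genes, 12 were called higher, against 5.22% of all genes, none lower, with a median log2 fold change of 4.30. In WT mice 12 of the 14 were called higher as well, against 15.8% of all genes, with a median of 4.79. Together the list held 21.7, 16.5, 23.5 and 20.3 CPM in placebo mice 1 to 4 and 839, 1819, 2099 and 74.8 CPM in tamoxifen mice 1 to 4. Treated mouse 4 was thus above the placebo range but well below the other treated mice. Tnn, the matrix protein tenascin-W of bone and stem cell niches, was at 0.135, 0.144, 0.0453 and 0.158 CPM under placebo and at 158, 328, 424 and 9.48 CPM under tamoxifen (log2 fold change 10.31 ± 1.14, adjusted p = 0.000451). Mmp13, the collagenase of bone remodeling, was at 0.564, 0.0480, 1.04 and 0.435 CPM under placebo and at 460, 1016, 1064 and 13.1 CPM under tamoxifen (10.09 ± 1.21, adjusted p = 0.000646). Ibsp, bone sialoprotein, rose from between 0 and 0.634 CPM to 87.1, 222, 294 and 2.41 CPM (9.002 ± 1.36, adjusted p = 0.00245). Sp7, the transcription factor that commits cells to the osteoblast lineage, rose from between 0 and 0.0480 CPM to 9.57, 15.3, 25.3 and 0.864 CPM (7.23 ± 1.099, adjusted p = 0.000857). With placebo values this near 0 the size of these rises depends on the prior count of the fit.

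Alpl, alkaline phosphatase, rose by 3.19 ± 0.43 (adjusted p = 0.00159), the osteocalcin genes Bglap and Bglap2, whose reads can be shared between near-identical copies, by 4.95 and 5.89, and the osteocyte gene Dmp1 by 2.71, the last with its call absent in 1 of the 16 leave-one-out fits. Phex, the phosphate-regulating protease of mature osteocytes, was at 0.679 to 1.82 CPM under placebo and at 0.309 to 1.40 CPM under tamoxifen (−0.61 ± 0.45, adjusted p = 0.393). The osteocyte genes Mepe and Sost were too low to be tested. Without tamoxifen mouse 4 12 members were called higher, against 10.2% of all genes, and 10 were called with Xist as a covariate, against 1.99%. With only the 8 Dnm2SL mice 3 were called, against 0.14%. With only the 10 mice that carry Xist none was called, against 0.149% of all genes called higher and 0.49% called in either direction, and the median was 4.27.

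Genes of osteoclasts, the cells that resorb bone, rose as well, with 6 of 10 called higher, against 5.22% of all genes, and a median of 2.18. In WT mice 8 of the 10 were called higher, against 15.8% of all genes, with a median of 4.49. Called members in Dnm2SL mice, all higher, numbered 9 without tamoxifen mouse 4, against 10.2% of all genes, and 4 with Xist as a covariate, against 1.99%. None was called with only the 8 Dnm2SL mice or only the mice that carry Xist. Their sum was 72.6, 62.2, 71.5 and 61.9 CPM in placebo mice and 308, 351, 789 and 84.3 CPM in tamoxifen mice. Acp5, the tartrate-resistant acid phosphatase of osteoclasts, was at 2.12, 1.97, 6.25 and 3.13 CPM under placebo and at 78.8, 85.1, 240.3 and 5.43 CPM under tamoxifen (4.92 ± 0.91, adjusted p = 0.00626). Mmp9, a gelatinase, rose from between 0.453 and 0.989 CPM to between 3.70 and 171 CPM (6.52 ± 0.99, adjusted p = 0.00260). Ctsk, the collagen-degrading cathepsin, was at 14.0 CPM in tamoxifen mouse 4, within the placebo range of 9.73 to 16.9 CPM, and at 105, 131 and 288 CPM in the other treated mice (3.22 ± 0.66, adjusted p = 0.0100). Nfatc1, the master regulator of the lineage, and the RANK receptor gene Tnfrsf11a had log2 fold changes of 0.29 and 0.99 and were not called. Of 10 tested cartilage genes 3 were called higher, against 5.22% of all genes: Acan, Hapln1 and Col9a2. Acan, the large proteoglycan of cartilage, rose from between 0 and 0.158 CPM to 6.99, 19.5, 25.8 and 0.278 CPM (6.78 ± 1.27, adjusted p = 0.00346), whereas Sox9 and Col2a1, which define chondrocytes, had changes of −0.29 and 1.22 and were not called.

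Collagens and other matrix genes rose along with them. All 32 members of the list had a log2 fold change above 0, and 20 were called higher, against 5.22% of all genes, with a median of 1.98. Their summed level was 5275, 5326, 4652 and 4005 CPM under placebo and 16905, 27946, 34060 and 5179 CPM under tamoxifen, so that tamoxifen mouse 4 lay within the placebo range. Col1a1, the main chain of fibrillar collagen in bone and tendon, was at 566, 555, 523 and 413 CPM under placebo and at 2731, 4585, 6200 and 481 CPM under tamoxifen (2.77 ± 0.56, adjusted p = 0.0100). Col12a1, a fibril-associated collagen, was at 25.9, 15.8, 11.6 and 11.8 CPM under placebo and at 530, 1064, 1440 and 50.4 CPM under tamoxifen (5.55 ± 0.89, adjusted p = 0.00339). Col14a1, another fibril-associated collagen, rose more evenly, from between 14.7 and 22.9 CPM to between 28.4 and 45.4 CPM (1.07 ± 0.19, adjusted p = 0.00500). The basement membrane collagens Col4a1, Col4a2, Col15a1 and Col18a1 had changes of 0.38, 0.32, 0.37 and 0.73 and were not called. In WT mice 28 of the 32 list members were called higher, against 15.8% of all genes, with a median of 3.43. The difference between the genotypes was called for 1 of the 32.

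Few markers of the cells that usually make muscle collagen passed the test. Among 12 fibroblast genes only Lum, a small keratan sulfate proteoglycan, was called higher, against 5.22% of all genes, and none lower. Its change was 2.27 ± 0.48 (adjusted p = 0.0115), with 76.5 CPM in tamoxifen mouse 4 against 50.5 to 115 CPM under placebo. The progenitor markers Pdgfra and Pi16 and the proteoglycan Dcn had changes of 0.24, 0.04 and 0.14. None of 9 tendon genes was called, with a median of −0.00, and they summed to between 703 and 1711 CPM in placebo and between 941 and 1290 CPM in tamoxifen mice. In WT mice, where 27.7% of all genes were called, 15.8% higher and 11.9% lower, 7 of those 9 were called higher with a median of 2.75. Their sum in WT mice was 57.9 to 305 CPM under placebo and 792 to 1782 CPM under tamoxifen. Untreated Dnm2SL mice thus already lay above untreated WT mice for this list. The difference between the genotypes was called for 1 of the 9. For the collagen list, 26 members were called higher without tamoxifen mouse 4, against 10.2% of all genes, 14 with Xist as a covariate, against 1.99%, 1 with only the mice that carry Xist, against 0.149%, and none with only the 8 Dnm2SL mice. Whether the bone, cartilage and collagen transcripts came from the muscle or from tissue next to it was not tested.

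**Figure D2:**
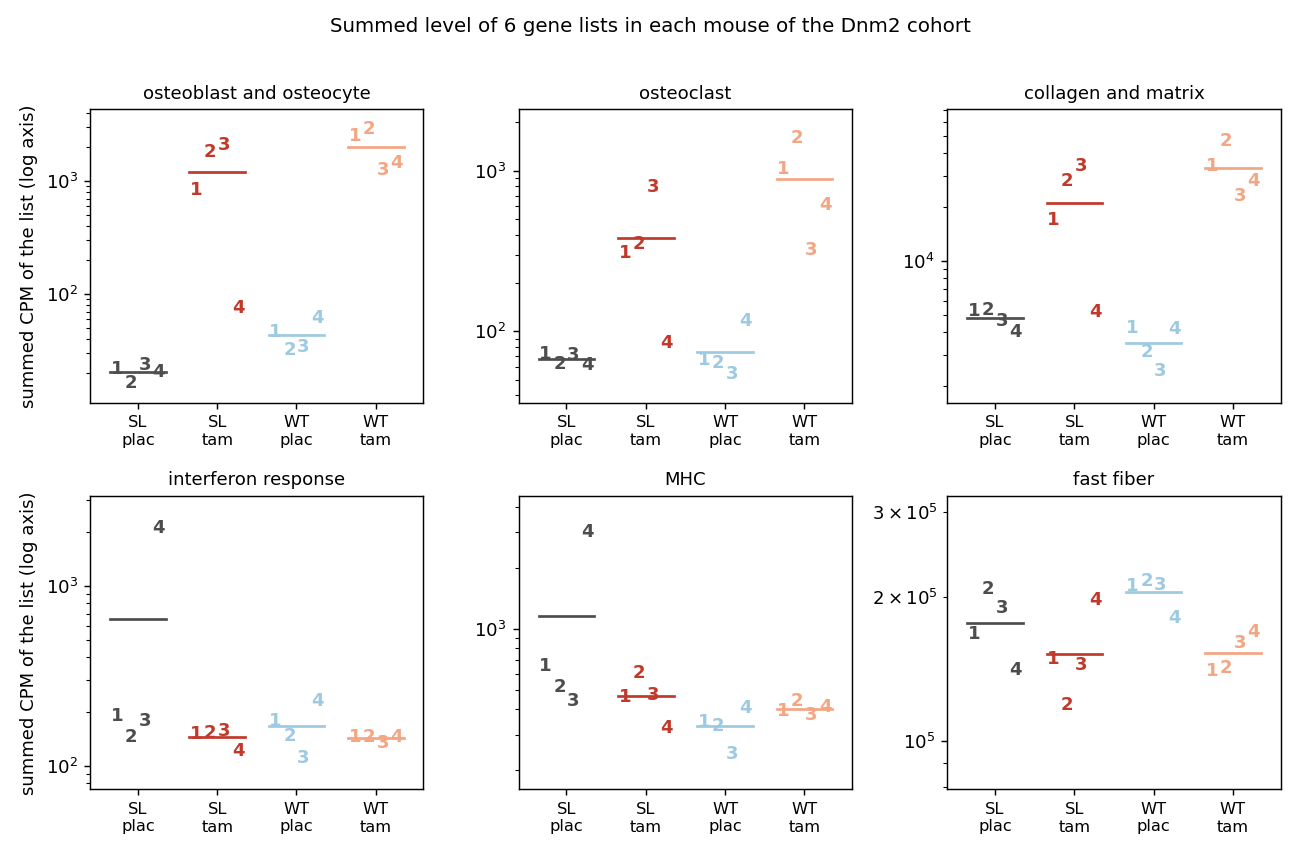
Summed CPM of 6 gene lists on a log axis in each mouse of the Dnm2 cohort; digits are mouse numbers and lines are group means. Tamoxifen mouse 4 of the Dnm2SL group stands near the placebo mice for osteoclast and collagen genes (84.3 and 5179 CPM), and placebo mouse 4 stands apart for interferon and MHC genes (2097 and 3012 CPM).

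Several partners of Flrt1 were also called higher, but not all followed it across the treated mice. Of 16 tested genes of the FLRT family, its receptors and its binding partners, 7 were called higher, against 5.22% of all genes, and none lower, with a median of 1.12. Flrt1 itself is 1 of the 7. With only the 8 Dnm2SL mice 2 were called, Flrt1 and Tenm3, against 0.14% of all genes called higher. With only the mice that carry Xist 1 was called, Flrt1 itself, against 0.149%. In WT mice 9 of the 16 were called higher, against 15.8% of all genes, with a median of 0.88. With Xist as a covariate 6 were called higher in Dnm2SL mice, against 1.99%. The list summed to 183 to 239 CPM in Dnm2SL placebo mice and to 354, 422, 472 and 235 CPM in tamoxifen mice 1 to 4. Tamoxifen mouse 4, the highest for Flrt1, thus lay within the placebo range. Fgfr2, a receptor of fibroblast growth factors with a role in bone growth, was at 0.316, 0.192, 0.498 and 0.198 CPM under placebo and at 30.8, 50.2, 72.3 and 2.16 CPM under tamoxifen (6.76 ± 0.87, adjusted p = 0.000857). Fgfr3, the receptor that restrains cartilage growth, rose from between 3.49 and 8.61 CPM to between 12.4 and 63.2 CPM (2.56 ± 0.41, adjusted p = 0.00339). Both were lowest, among treated mice, in mouse 4. Fgfr4, the receptor found in satellite cells and regenerating fibers, was at 0.586, 0.480, 0.407 and 0.0792 CPM under placebo and at 4.72, 1.40, 2.13 and 3.06 CPM under tamoxifen (2.67 ± 0.48, adjusted p = 0.00378). For this receptor treated mouse 4 was not apart from the others. In WT mice Fgfr4 stood at 4.39 ± 1.59 CPM under placebo and 4.06 ± 1.22 under tamoxifen, and the difference between the effects was 2.80 ± 0.62 (adjusted p = 0.0655, not called). Fgfr1, the main receptor in most tissues, did not pass the test (0.08).

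Tenm3, a teneurin that binds latrophilins, was at 5.21, 4.70, 4.53 and 5.74 CPM under placebo and at 15.98, 17.8, 19.8 and 9.63 CPM under tamoxifen (1.63 ± 0.24, adjusted p = 0.00205). Robo1, the receptor of Slit guidance cues, rose by 1.73 ± 0.39 (adjusted p = 0.0141) and Flrt2 by 1.53 ± 0.42 (adjusted p = 0.0375). Robo1 lost its call without tamoxifen mouse 2 or 3 (adjusted p up to 0.0590), and Flrt2 lost it in 8 of the 16 leave-one-out fits (up to 0.137). Slit2, a ligand of Robo1 that was not on the list, was at 0.609, 0.480, 1.27 and 0.317 CPM under placebo and at 25.9, 47.9, 44.3 and 1.51 CPM under tamoxifen (5.39 ± 0.83, adjusted p = 0.00265). The latrophilin genes Adgrl1, Adgrl2 and Adgrl3 had changes of 0.29, 0.13 and −0.14 and Flrt3 one of 0.08, none of them called.

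Among 31 genes of semaphorin-plexin signaling, which guides axons and vessels, 6 were called higher, against 5.22% of all genes, and 1 lower, against 3.05%, with a median of 0.37. Without tamoxifen mouse 4 9 were called higher, against 10.2% of all genes. Without placebo mouse 4 2 were, against 3.23%, as were 2 with Xist as a covariate, against 1.99%. With only the 8 Dnm2SL mice none was called. Nrp2, a co-receptor of class 3 semaphorins, rose from between 13.9 and 25.4 CPM to between 28.6 and 90.9 CPM (1.64 ± 0.32, adjusted p = 0.00824). Plxna2, a plexin that Nrp2 signals through, was at 20.8, 13.7, 10.46 and 15.9 CPM under placebo and at 25.5, 34.1, 32.5 and 32.8 CPM under tamoxifen (1.03 ± 0.19, adjusted p = 0.00581). Sema4d, the plexin-B1 ligand by which osteoclasts restrain osteoblasts, fell from between 98.9 and 127 CPM to between 55.3 and 90.4 CPM (−0.58 ± 0.14, adjusted p = 0.0199), a call lost without tamoxifen mouse 2 or 3 (up to 0.0717). Its receptor gene Plxnb1 was called higher (1.04), a call lost in 6 of those 16 fits. Of the other ligand genes, Sema3g (0.87), Sema6b (0.74) and Sema7a (0.55) were called, each with the call absent in 5 of the 16 leave-one-out fits, and the other 16 semaphorin genes besides Sema4d were not called.

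The receptors through which tamoxifen acts did not pass the test. Esr1, the main estrogen receptor of muscle and bone, was at 22.9, 20.7, 27.0 and 23.2 CPM under placebo and at 21.1, 23.0, 21.1 and 28.3 CPM under tamoxifen, with overlapping groups and a log2 fold change of −0.00 ± 0.17 (adjusted p = 0.995). Gper1, a membrane estrogen receptor, was at 1.62 to 2.07 CPM under placebo and 1.05 to 3.11 CPM under tamoxifen (0.22 ± 0.32, adjusted p = 0.705), and Esr2 was too low to be tested. Of 19 tested genes of estrogen receptors and known estrogen-responsive genes, 4 were called higher and 1 lower, with a median of 0.06. Over all genes 5.22% were called higher and 3.05% lower. None of the list was called with only the 8 Dnm2SL mice or only the mice that carry Xist. In WT mice 6 were called higher, against 15.8% of all genes, and 5 lower, against 11.9%. Igf1, a growth factor of muscle and bone, was at 10.95, 15.5, 31.6 and 11.8 CPM under placebo and at 125, 256, 205 and 14.3 CPM under tamoxifen (3.10 ± 0.61, adjusted p = 0.00824). Igfbp4, a binding protein of Igf1, was at 36.1 to 47.2 CPM under placebo and at 119, 163, 170 and 59.1 CPM under tamoxifen (1.58 ± 0.25, adjusted p = 0.00339). Ccn5 rose by 3.92 ± 0.65 (adjusted p = 0.00339). In all 3 tamoxifen mouse 4 was the lowest treated mouse.

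Pgr, the progesterone receptor gene and a classical estrogen target, rose from between 0.0453 and 0.203 CPM to 0.981, 1.91, 0.762 and 0.185 CPM (2.39 ± 0.70, adjusted p = 0.0243), a call absent in 4 of the 16 leave-one-out fits (up to 0.101). Greb1, another classical target, was at 2.61, 0.240, 0.226 and 3.01 CPM under placebo and at 8.68, 18.2, 8.34 and 1.42 CPM under tamoxifen (2.48 ± 0.81, adjusted p = 0.0679). Its 2 higher placebo mice were the 2 that carry Xist. Hspb8, a small chaperone, fell from between 727 and 1240 CPM to between 473 and 713 CPM (−0.68 ± 0.17, adjusted p = 0.0222), a call lost without placebo mouse 2 or tamoxifen mouse 2 or 3 (up to 0.0875). Myc, Xbp1 and Ctsd, which respond to estrogen in breast cells, were not called, with changes of −0.27, 0.05 and −0.15.

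Promoters of these genes were searched for the letters that the estrogen receptor binds. RefSeq promoters (GRCm38.p6, 250 bases before to 50 bases after each start, both strands) could be matched for 574 of the 806 genes called higher, 365 of the 471 called lower and 11244 of all 15439 tested. The inverted repeat of GGTCA and TGACC 3 bases apart was found in no promoter of either called set and in that of 1 gene among all tested. The single arm AGGTCA, which many nuclear receptors share, was in a promoter of 13.2% of matched genes called higher, 18.6% of those called lower and 15.1% of all tested. A gene counted if any of its windows held the arm, so genes with more windows had more chances. The 95% exact binomial intervals, 10.6% to 16.3% and 14.8% to 23.0%, both include the share over all tested. To show the arm in its context, stretches of 86 bases are printed for Igf1 and Greb1, both from the estrogen list, and for Meg3, 1 of the 5 genes called in all alternative fits. Capitals mark AGGTCA or its reverse complement TGACCT, and each sequence runs 5′ to 3′ on the strand of the gene.
Igf1, chr10:87860910-87860995, plus strand: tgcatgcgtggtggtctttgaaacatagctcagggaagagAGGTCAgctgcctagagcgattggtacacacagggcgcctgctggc
Greb1, chr12:16800929-16801014, minus strand: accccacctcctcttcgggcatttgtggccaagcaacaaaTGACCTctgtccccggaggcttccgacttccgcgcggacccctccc
Meg3, chr12:109545217-109545302, plus strand: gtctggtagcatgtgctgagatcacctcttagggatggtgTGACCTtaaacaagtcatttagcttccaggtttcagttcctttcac
For single genes only the 250 bases before each start were searched. The stretch of Meg3 lies in the downstream of its 2 windows, and these bases of the upstream window hold no arm. Those of Pgr, Igfbp4, Rian, Mirg, Nek6, Micall2 and C1qtnf3 held none. The promoter of Flrt1 was not analysed here. Tamoxifen also blocks steps of cholesterol synthesis, whose genes share the sterol element core TCACCCCAC. It was in a promoter of 0.871% of matched genes called higher, none of those called lower and 0.703% of all tested. Of 22 tested cholesterol synthesis genes 1 was called lower, against 3.05% of all genes, and none higher, with a median of −0.04. None was called with Xist as a covariate or with only the 8 Dnm2SL mice.

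Neither the gene that carries the mutation nor most other CNM genes passed the test. Dnm2 was at 70.2, 72.4, 62.0 and 65.7 CPM under placebo and at 69.7, 66.5, 64.5 and 66.8 CPM under tamoxifen (log2 fold change −0.01 ± 0.07, adjusted p = 0.929). Mtm1, the phosphoinositide phosphatase behind the X-linked form, was at 14.0 to 18.4 CPM under placebo and 13.9 to 19.8 CPM under tamoxifen (0.00 ± 0.18, adjusted p = 0.999). Of 13 tested CNM genes 2 were called lower, against 3.05% of all genes, and none higher, with a median of −0.06. Without placebo mouse 4 none was called. Cavin4, a caveolar coat protein that recruits Bin1 to forming tubules, was at 281, 316, 237 and 345 CPM under placebo and at 188, 138, 150 and 247 CPM under tamoxifen (−0.71 ± 0.17, adjusted p = 0.0185), and lost its call without placebo mouse 2 or 4 or tamoxifen mouse 2 or 3 (up to 0.0764).

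Bin1, the membrane-bending protein of T-tubules that binds dynamin 2, was at 804, 1086, 720 and 888 CPM under placebo and at 695, 518, 533 and 714 CPM under tamoxifen. The treated mice lay below all placebo mice, by −0.51 ± 0.15 (adjusted p = 0.0479). The call stood close to the threshold: it was absent in 12 of the 16 leave-one-out fits (up to 0.159), and the adjusted p was 0.148 with Xist as a covariate. In WT mice Bin1 was at 500 ± 9.27 CPM under placebo and 404 ± 70.1 CPM under tamoxifen.

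The triad is where T-tubules meet the sarcoplasmic reticulum. Of 24 tested genes of the triad and calcium handling 2 were called lower, against 3.05% of all genes, and none higher, 20 had a log2 fold change below 0, and the median was −0.25. Cacnb1, the beta subunit of the L-type calcium channel, was at 349, 365, 299 and 334 CPM under placebo and at 264, 184, 201 and 232 CPM under tamoxifen (−0.61 ± 0.14, adjusted p = 0.0150). It lost its call without tamoxifen mouse 2 or 3 (up to 0.0632). Jsrp1, a junctional protein that binds that channel, was at 294, 448, 298 and 283 CPM under placebo and at 241, 181, 176 and 260 CPM under tamoxifen (−0.62 ± 0.18, adjusted p = 0.0488), with the call absent in 13 of the 16 leave-one-out fits (up to 0.169). The calcium release channel gene Ryr1, the voltage sensor Cacna1s and the pump Atp2a1 had changes of −0.14, 0.15 and −0.23. Without tamoxifen mouse 4, which had the highest sum of the treated mice (49219 CPM, against 29726 to 36606), 9 members were called lower, against 6.18% of all genes, with a median of −0.39. With Xist as a covariate none was called (median −0.18), nor was any with only the 8 Dnm2SL mice.

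Colq and Ache, of the nerve-muscle synapse, fell in all treated mice. Colq, the collagen tail that anchors acetylcholinesterase, was at 13.2, 14.6, 11.7 and 16.7 CPM under placebo and at 6.41, 5.38, 5.30 and 6.57 CPM under tamoxifen (−1.24 ± 0.26, adjusted p = 0.0107). Ache, the enzyme itself, was at 64.5, 59.9, 54.6 and 46.6 CPM under placebo and at 25.8, 20.1, 22.3 and 38.2 CPM under tamoxifen (−1.08 ± 0.21, adjusted p = 0.00777). Neither gene's groups overlapped, both were called in all 16 leave-one-out fits, and both were named after their values had been seen. Among 20 genes of a denervation list 1 was called lower, against 3.05% of all genes, and none higher. It was Chrne, the adult subunit of the acetylcholine receptor, at 28.7, 31.6, 8.74 and 18.4 CPM under placebo and 4.42, 3.27, 3.37 and 9.45 CPM under tamoxifen. Its change was −2.07 ± 0.56 (adjusted p = 0.0340), and the call was absent in 6 of the 16 leave-one-out fits (up to 0.123). Chrnd, the delta subunit, was at 7.83 to 58.1 CPM under placebo and 6.30 to 12.3 CPM under tamoxifen (−1.76 ± 0.55, adjusted p = 0.0592). The genes Chrna1, Chrnb1 and Musk had changes of −0.54, −0.28 and −0.73 and Myog one of −0.54, none called. In WT mice Colq fell by −1.85 ± 0.27, Ache by −1.43 ± 0.21 and Chrne by −2.42 ± 0.57. The differences between genotypes were not called (adjusted p between 0.489 and 0.901).

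**Figure D3:**
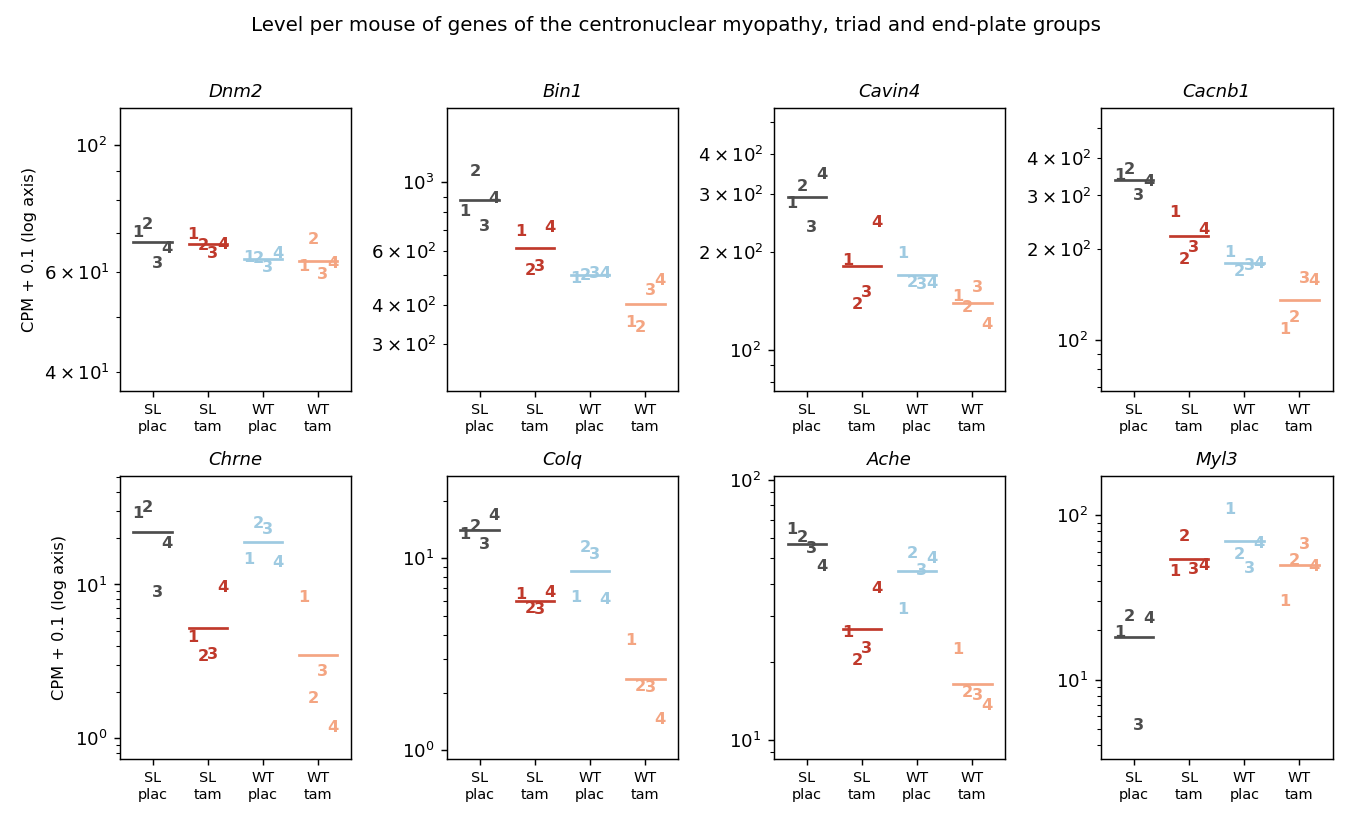
CPM + 0.1 on a log axis for 8 genes of the CNM, triad, synapse and slow fiber lists in each mouse; digits are mouse numbers and lines are group means. Dnm2 lies between 62.0 and 72.4 CPM in all 8 Dnm2SL mice, while Colq is at 5.30 to 6.57 CPM in treated and 11.7 to 16.7 CPM in placebo mice.

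Few fiber type genes passed the test. None of 14 fast fiber genes was called, though 13 had a change below 0 (median −0.31). Without tamoxifen mouse 4 3 were called lower (median −0.43), against 6.18% of all genes, and without placebo mouse 4 1 was, against 1.68%. Myh4, the fastest myosin heavy chain, changed by −0.52 ± 0.24 (adjusted p = 0.177, and down to 0.0195 in alternative fits) and Pvalb, the calcium buffer of fast fibers, by −0.78 ± 0.26 (adjusted p = 0.0759, and down to 0.00286). Of 12 slow fiber genes 2 were called higher, against 5.22% of all genes. Myl3, the slow essential light chain, was at 19.3, 24.2, 5.21 and 23.7 CPM under placebo and at 45.6, 74.0, 46.8 and 49.4 CPM under tamoxifen (1.57 ± 0.39, adjusted p = 0.0238). Fhl2, a LIM protein of the sarcomere, rose from between 1.63 and 4.42 CPM to between 3.55 and 8.33 CPM (1.29 ± 0.30, adjusted p = 0.0160). Both calls were lost without tamoxifen mouse 2 or 3 (up to 0.0916 and 0.0609). Of the other slow genes, Myh7, Tnnt1, Tnni1 and Tnnc1 had changes of −0.71, −0.85, −0.84 and −1.003 and were not called.

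Of 19 myogenic genes 1 was called higher, against 5.22% of all genes, and none lower. It was Myh8, the perinatal myosin, at 9.74, 7.54, 8.96 and 12.9 CPM under placebo and 22.5, 21.0, 17.4 and 15.9 CPM under tamoxifen (0.97 ± 0.19, adjusted p = 0.00828). Embryonic myosin Myh3 and the satellite cell factor Pax7 had changes of 0.24 and 0.99 and were not called. Actc1, cardiac actin, which fetal and regenerating muscle expresses, was at 390, 160, 1057 and 292 CPM under placebo and at 146, 124, 156 and 58.3 CPM under tamoxifen (−1.97 ± 0.54, adjusted p = 0.0368), a call absent in 5 of the 16 leave-one-out fits (up to 0.111). The groups did not overlap, but placebo mouse 3 was far above the others.

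Nearly all respiratory chain genes of the nucleus had small changes below 0, of which few passed the test. Of 72 tested, 70 had a log2 fold change below 0 and the median was −0.25, while 3 were called lower and none higher, 4.17% against the 3.05% of all genes called lower. Ndufs4, a complex I subunit, was at 186, 258, 216 and 196 CPM under placebo and at 155, 139, 139 and 177 CPM under tamoxifen (−0.49 ± 0.13, adjusted p = 0.0351). Cox7a2, a subunit of cytochrome c oxidase, changed by −0.43 ± 0.13 (adjusted p = 0.0490) and Ndufa12 by −0.38 ± 0.11 (adjusted p = 0.0470). All 3 calls were lost in some leave-one-out fits (up to 0.119, 0.167 and 0.163), and none remained with Xist as a covariate, where 1.13% of all genes were called lower and the median was −0.14. Without tamoxifen mouse 4, which had the highest sum of the treated mice, 12 were called lower, against 6.18% of all genes. In WT mice 58 of the 72 were called lower, against 11.9%, with a median of −0.52. The difference between genotypes was called for none of the 72.

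Genes encoded in the mitochondrion made up 14.9% ± 1.56 of counts (SD, n = 4) under placebo and 15.2% ± 0.858 under tamoxifen (exact two-sided permutation p = 0.629, the smallest possible being 0.0286). In WT mice the shares were 22.9% ± 2.56 and 17.7% ± 0.9996. Fatty acid oxidation genes had a median of −0.08 with none of 32 called, or 2 called lower without tamoxifen mouse 4, against 6.18% of all genes. In WT mice 21 were called lower, against 11.9%, and 2 higher, against 15.8%. Of 25 genes of glycolysis and glycogen 1 was called higher, against 5.22% of all genes, and none lower. It was Fbp2, the muscle fructose bisphosphatase, at 27.5, 26.2, 31.0 and 23.9 CPM under placebo and 46.6, 30.2, 41.9 and 80.7 CPM under tamoxifen (0.88 ± 0.23, adjusted p = 0.0311), with the call absent in 5 of the 16 leave-one-out fits (up to 0.0818). In Bin1KO mice it rose by 1.94 ± 0.22 (adjusted p = 0.0007).

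**Figure D4:**
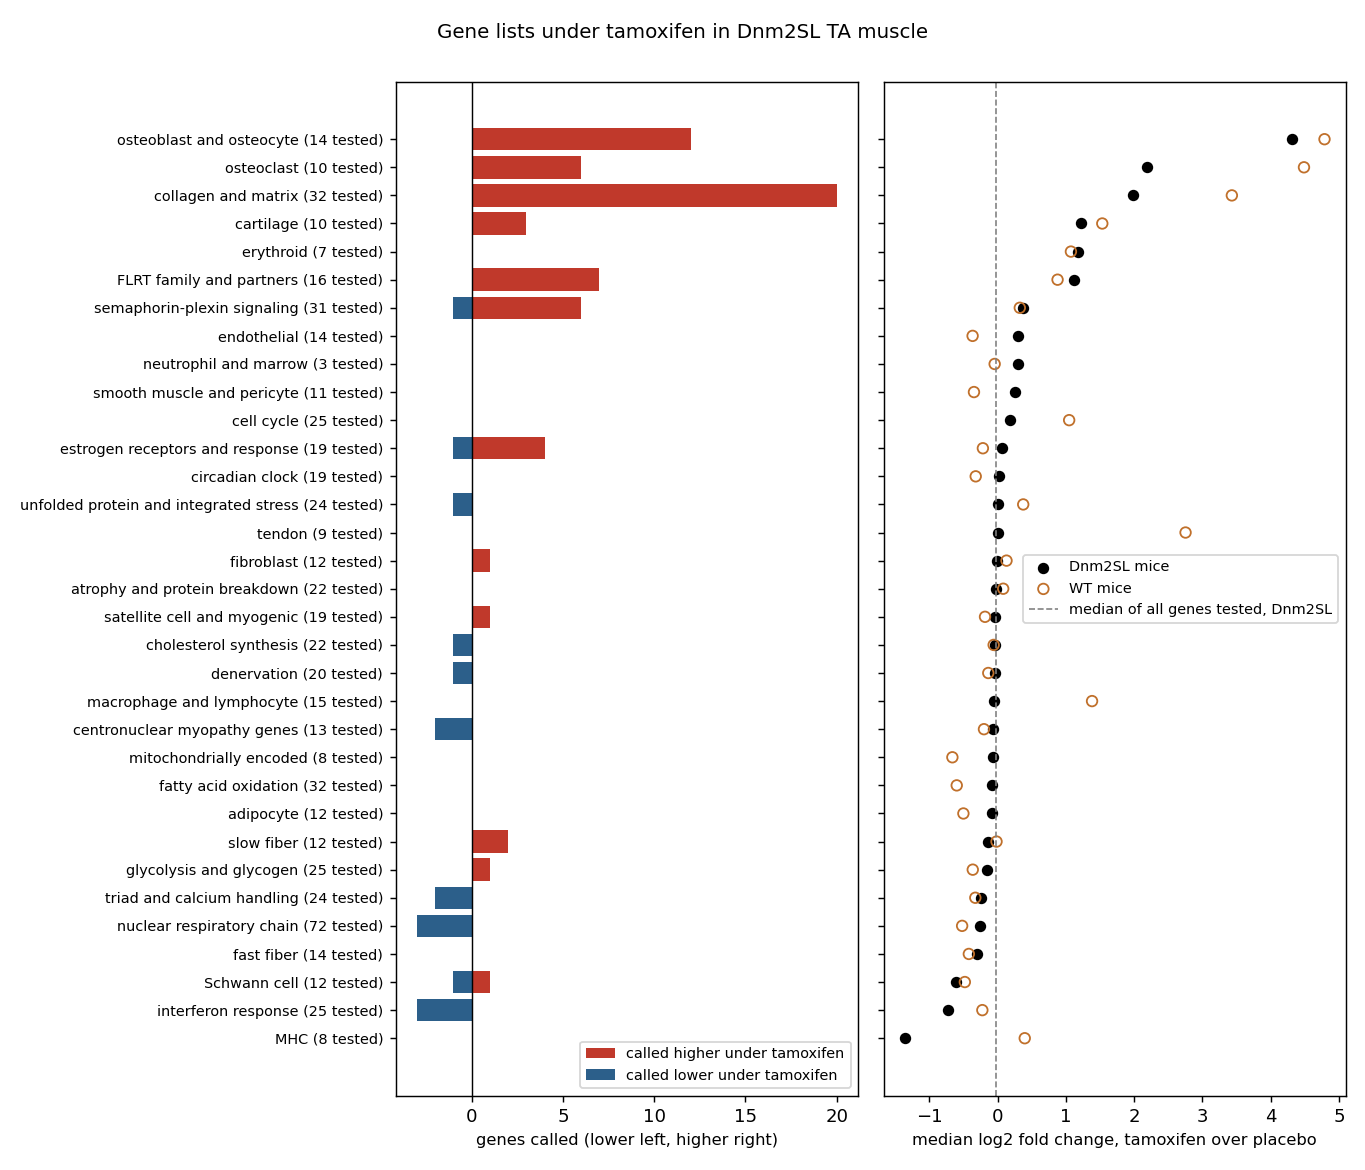
Left, genes called higher and lower under tamoxifen in Dnm2SL mice for each gene list; right, the median log2 fold change of the list's tested genes in Dnm2SL mice (filled) and WT mice (open), with a dashed line at the median of all genes tested in Dnm2SL mice (−0.03). Osteoblast, osteoclast and collagen lists stand at medians of 4.30, 2.18 and 1.98, and MHC genes at −1.36 with none called.

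Interferon-inducible and immunoglobulin genes were among the steepest falls, and placebo mouse 4 was far above the other placebo mice for those described here. Without it some kept a smaller fall that was still called and others did not. Igkc, the kappa light chain of antibodies, named after its values had been seen, was at 0.766, 0.480, 0.634 and 309 CPM in placebo mice 1 to 4 and at 0.370 to 0.644 CPM in tamoxifen mice. It was called (−7.07 ± 1.88, adjusted p = 0.0320) but not without placebo mouse 4 (−0.26, adjusted p = 0.770). Gm4841, an interferon-inducible GTPase, was at 24.3, 17.9, 4.35 and 790 CPM in placebo mice 1 to 4 and at 2.64, 2.15, 1.12 and 0.370 CPM in tamoxifen mice 1 to 4. The change was −7.01 ± 1.46 (adjusted p = 0.0115), and −3.27 without placebo mouse 4 (adjusted p = 0.0216). The call was lost without tamoxifen mouse 2 or 3 (up to 0.0590). F830016B08Rik, of the same family, was at 5.25, 5.42, 2.85 and 105 CPM under placebo and at 0.644, 0.638, 0.682 and 0.401 CPM under tamoxifen (−5.53 ± 1.17, adjusted p = 0.0107, and −2.83 without placebo mouse 4, still called), and was called in all 16 leave-one-out fits. BC023105 fell by −4.98 ± 1.08 (adjusted p = 0.0135, and −2.47 without placebo mouse 4, still called), with the call lost without tamoxifen mouse 2 or 3 (up to 0.0605). These genes belong to a family of similar copies that can share reads.

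Of 25 interferon response genes 3 were called lower, against 3.05% of all genes, and 22 had a change below 0 (median −0.73, and −0.16 without placebo mouse 4). Iigp1, an immunity-related GTPase, was at 17.4, 5.57, 7.65 and 484 CPM under placebo and at 4.91 to 6.70 CPM under tamoxifen. It was called (−4.47 ± 1.16, adjusted p = 0.0309) but not without placebo mouse 4 (−0.83, adjusted p = 0.175), nor without any single tamoxifen mouse. Igtp, of the same family, was at 13.2, 11.5, 11.7 and 217 CPM under placebo and at 6.14 to 6.90 CPM under tamoxifen (−3.26 ± 0.81, adjusted p = 0.0243), and was still called without placebo mouse 4 (−0.88, adjusted p = 0.0253) but not without tamoxifen mouse 1, 2 or 3 (up to 0.0875). The chemokine gene Cxcl9 changed by −3.60 ± 0.91 (adjusted p = 0.0244) and by −1.06 without that mouse (adjusted p = 0.0625), and lost its call without tamoxifen mouse 1, 2 or 3 as well. All 8 MHC genes had a change below 0 and none was called, the median being −1.36 with placebo mouse 4 and −0.22 without it. The MHC class I gene H2-K1 was at 85.8, 72.3, 90.6 and 560.2 CPM under placebo and at 64.1 to 78.1 CPM under tamoxifen (−1.56 ± 0.50, adjusted p = 0.0697). The cause of the high values in placebo mouse 4 was not tested. None of 15 macrophage and lymphocyte genes was called in Dnm2SL mice (median −0.05), and their sum was highest in placebo mouse 4 (522 CPM, against 131 to 261 in the other placebo mice). Without that mouse the median was 0.44, again with none called. In WT mice 11 of the 15 were called higher, against 15.8% of all genes, with a median of 1.38.

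Some genes that fell under tamoxifen also had higher levels in untreated Dnm2SL mice than in untreated WT mice. They were grouped in this way after their values had been seen. Since both patterns rest on the same Dnm2SL placebo mice they are not independent, and WT values are given here as levels, without a test result against the mutant. Klf5, a zinc-finger factor of growing and regenerating tissue, was at 30.7, 19.4, 18.0 and 20.6 CPM in Dnm2SL placebo mice and at 8.86, 5.74, 8.02 and 9.01 CPM in treated ones (−1.48 ± 0.25, adjusted p = 0.00339). WT mice held 2.59 ± 1.14 CPM under placebo and 3.36 ± 0.473 CPM under tamoxifen. Mt3, a metallothionein best known from brain, was at 24.1, 42.3, 11.2 and 44.6 CPM under placebo and at 8.89, 4.38, 5.05 and 4.32 CPM under tamoxifen (−2.42 ± 0.43, adjusted p = 0.00566), against 0.513 ± 0.173 CPM in WT placebo and 3.87 ± 2.25 CPM in WT tamoxifen mice. Gdf11, a TGF-beta family ligand, was at 30.7, 50.1, 25.4 and 23.6 CPM under placebo and at 12.7, 12.6, 11.8 and 5.40 CPM under tamoxifen (−1.61 ± 0.29, adjusted p = 0.00581). In WT mice it was at 5.37 ± 1.61 CPM under placebo and 13.6 ± 2.01 CPM under tamoxifen. All 4 treated Dnm2SL mice lay below the untreated ones, treated mouse 4 within the WT placebo range of 3.16 to 7.01 CPM.

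Msln, mesothelin, fell from between 5.43 and 17.2 CPM to between 1.94 and 4.14 CPM (−1.90 ± 0.36, adjusted p = 0.00678), with WT placebo mice at 0.322 ± 0.0528 CPM. Map1a, a microtubule-associated protein, was at 84.1, 74.9, 41.7 and 85.2 CPM under placebo and at 36.4, 38.5, 35.5 and 17.4 CPM under tamoxifen (−1.16 ± 0.28, adjusted p = 0.0207), with WT placebo mice at 9.66 ± 3.34 CPM. Its call was lost without placebo mouse 2 or 4 or tamoxifen mouse 3 (up to 0.0596). Alox12, a lipoxygenase, was at 9.53, 8.11, 2.72 and 8.23 CPM under placebo and at 1.44, 1.55, 1.08 and 0.710 CPM under tamoxifen (−2.53 ± 0.37, adjusted p = 0.00183), with WT placebo mice at 2.10 ± 0.631 CPM. Sprr1a, a cornified envelope protein that injured nerve and muscle also express, fell from between 2.49 and 10.2 CPM to between 0.438 and 1.17 CPM (−3.10 ± 0.47, adjusted p = 0.00599) and was 0 in all WT mice of the cohort. Srrm4os and Gm35853, 2 noncoding RNAs whose WT levels are not given here, fell by −2.31 ± 0.45 (adjusted p = 0.00813) and −2.55 ± 0.40 (adjusted p = 0.00265).

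Krt18 and Sln, also higher in untreated Dnm2SL mice, did not pass the test. Krt18, an epithelial keratin, was at 19.9, 49.7, 6.47 and 16.3 CPM under placebo and at 22.1, 12.95, 20.5 and 14.6 CPM under tamoxifen (−0.39 ± 0.41, adjusted p = 0.592), against 0.191 ± 0.137 CPM in WT placebo mice. Sln, an inhibitor of the sarcoplasmic reticulum pump, was at 129, 55.0, 12.4 and 89.96 CPM under placebo and at 144, 72.0, 87.3 and 34.4 CPM under tamoxifen (0.24 ± 0.53, adjusted p = 0.825), against 0.817 ± 0.504 CPM in WT placebo mice. For both genes the groups overlapped. Klf5, Map1a, Msln, Gdf11, Krt18 and Sln were named after their values had been seen.

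Whether the drug acted differently in mutant and WT muscle was tested as the difference of the 2 effects, which share no mice. It was called for 40 genes (0.259% of 15439), and 2089 passed an unadjusted p of 0.05. In 35 of the 40 (0.227% of genes tested) the effect was lower in Dnm2SL mice, and in 34 of these 35 tamoxifen raised the gene in WT mice. All 35 were also called higher in Dnm2SL placebo than in WT placebo mice. That comparison uses the same placebo mice as the difference of effects, so the 2 are not independent. Of the 35, 10 were called lower in Dnm2SL mice. Mt3 changed by −2.42 in Dnm2SL and by 2.698 ± 0.50 in WT mice, a difference of −5.11 ± 0.66 (adjusted p = 0.0115). For Gdf11 the difference was −2.91 ± 0.41 (adjusted p = 0.0169), for Map1a −2.49 ± 0.40 (0.0248), for Msln −3.11 ± 0.57 (0.0390), for Mpzl3 −1.98 ± 0.33 (0.0248) and for Klf5 −1.82 ± 0.36 (0.0470), all by edgeR. Runx1, a factor induced in denervated muscle, was at 22.8 ± 4.76 CPM in placebo and 34.02 ± 9.71 CPM in treated Dnm2SL mice (0.58 ± 0.29, adjusted p = 0.224) but went from 2.06 ± 1.16 to 21.4 ± 5.09 CPM in WT mice (difference −2.695 ± 0.42, adjusted p = 0.0248). Timp1, an inhibitor of matrix proteases, was at 21.6 ± 12.2 and 27.9 ± 18.0 CPM in Dnm2SL mice and went from 0.736 ± 0.461 to 37.8 ± 13.9 CPM in WT mice (difference −5.13 ± 0.85, adjusted p = 0.0248). AC109619.1 rose in both genotypes, less in Dnm2SL mice (difference −1.37 ± 0.28, adjusted p = 0.0470). The count of 40 varied with the mice used, from 1 without WT tamoxifen mouse 1 to 293 without Dnm2SL placebo mouse 3. Of the 806 genes called higher in Dnm2SL mice, 682 were also called higher in WT mice and none lower. Of the 471 called lower, 222 were called lower in WT mice and 11 higher. Over all genes 15.8% were called higher and 11.9% lower in WT mice.

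**Figure D5:**
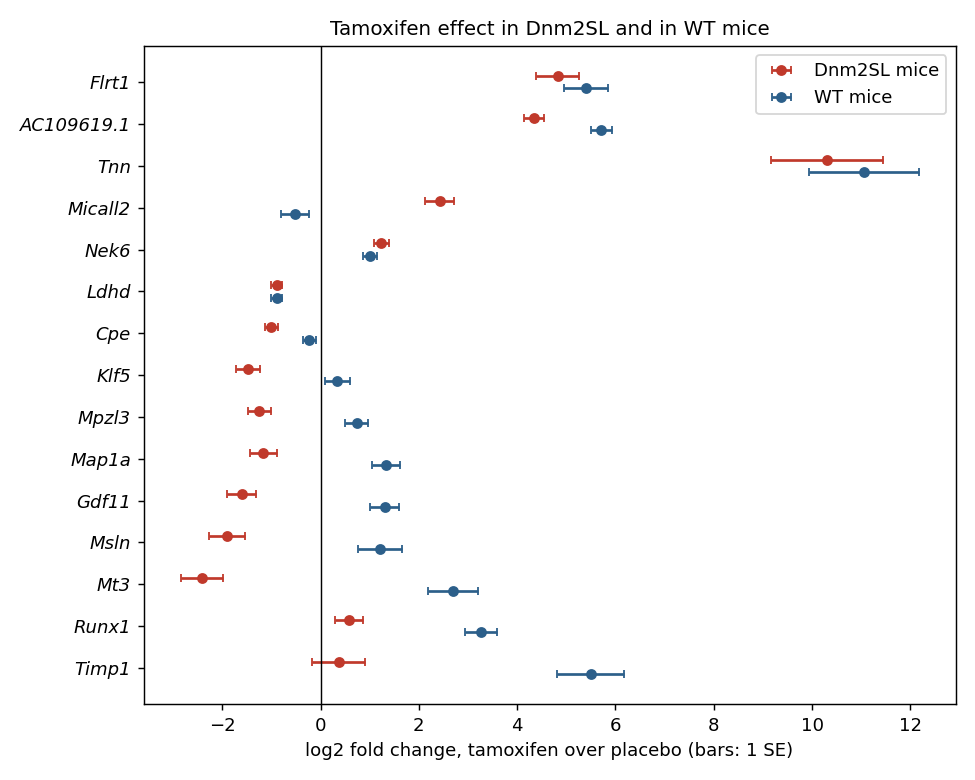
Log2 fold change of 15 genes, tamoxifen over placebo, in Dnm2SL mice and in WT mice, 4 mice a group; bars are 1 SE. Flrt1 and Nek6 rose and Ldhd fell in both, Micall2 rose by 2.42 in Dnm2SL mice with −0.53 in WT mice, and Mt3, Gdf11, Map1a, Msln and Mpzl3 have changes of opposite sign in the 2 genotypes.

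The same drug in the Bin1KO cohort, whose mice and library protocol are separate, gave a further view of the genes called here. Of the 806 genes called higher in Dnm2SL mice 667 had a value in Bin1KO mice, and 37 of them were called higher there and none lower, with a median log2 fold change of 0.06. Of the 471 called lower 461 had a value, and 36 were called lower and none higher, with a median of −0.12. Over all genes with a value in Bin1KO mice 3.13% were called, 1.52% higher and 1.61% lower. Among the genes described above, Meg3 rose in Bin1KO mice by 2.59 ± 0.48 (adjusted p = 0.0211), Mirg by 3.11 ± 0.42 (0.00332), Nek6 by 1.096 ± 0.16 (0.00255) and Efhc2 by 2.99 ± 0.54 (0.00524). Ldhd fell by −0.87 ± 0.09 (0.000273), Popdc2 by −0.77 ± 0.13 (0.00790) and Alox12 by −2.91 ± 0.37 (0.0007), all by edgeR. Other genes with separate groups in Dnm2SL mice were not called there: Cpe had a change of −0.04 (adjusted p = 0.857), Rasd2 one of −1.03 ± 0.33 (0.0963), Klf5 one of −1.11 ± 0.41 (0.144) and Col14a1 one of −1.41 ± 0.53 (0.165). None of the 7 osteoblast and osteocyte genes tested in Bin1KO mice was called, with a median of 1.27, nor was any of the 32 collagen genes, with a median of −0.50. The spread between treated Bin1KO mice was wide, Mmp13 being at 73.1 ± 145 CPM (SD, n = 4; log2 fold change 8.11 ± 2.74, adjusted p = 0.124 by edgeR) and Col12a1 at 154 ± 296 CPM. Micall2 (0.30 ± 0.32, adjusted p = 0.624) and C1qtnf3 (0.42, adjusted p = 0.784) were not called in Bin1KO mice.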

How the data were processed

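RNA was sequenced from the TA muscle of 28 mice, 16 in the Dnm2 cohort (300 ng of RNA, 2 min of fragmentation) and 12 in the Bin1 cohort (350 ng, 8 min). The authors deposited raw read counts per gene. The submitters' processing notes name bcl2fastq 2.20.0.422, cutadapt 1.10, Bowtie 1.2.2, STAR 2.5.3, HTSeq 0.6.1p1 and build mm39. Of 55416 identifiers 52083 had a symbol in GENCODE M21. In the Bin1 cohort, lines that name no gene held a median of 23.9% of counts and were left out.

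Groups came from the labels. Counts of each cohort were fitted with edgeR 4.0.16 (limma 3.58.1, R 4.3.3), with edgeR's own filter on low counts, TMM scaling, the quasi-likelihood test and Benjamini-Hochberg adjustment at 0.05. Fold changes used a prior count of 2, and CPM used scaled library sizes. The SE beside a fold change was worked back from the test statistic and the fold change without the prior count. It is therefore approximate for the printed value, most of all for genes with counts near 0. The fit was tested on simulated data. Alternatives were DESeq2 1.42.0, other scaling and filters, a replicate block, Xist as a covariate, and fits leaving out each mouse. Fits without both mice numbered 4, with only the 10 mice that carry Xist, and with only Dnm2SL mice without tamoxifen mouse 4 were chosen after seeing the data. Since the labels do not tell how mice were raised or housed, p-values measure the spread between these mice.

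Genes were named by a rule: the 12 called genes that rose most and the 12 that fell most, provided that their mean log2 CPM exceeded 1 and the 2 groups did not overlap, the 3 smallest p-values of each list, and Dnm2, Bin1, Mtm1, the estrogen receptors, sex-linked genes and Flrt1, not all of which are reported here. All other genes named were chosen after their values had been seen. Members and gene lists were chosen with earlier results of these data known. Intervals cover counting error only.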

Additional observations from a re-analysis of the deposited data

Results flagged for a closer look

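Of 194 groups of 4 values examined, 18 held 1 mouse set apart from the other 3, and chance alone sets apart about 1 in 20 groups. Among treated mice, mouse 1 stood apart for Micall2 (16.6 CPM), Plxna2 (25.5 CPM) and Cnp (9.75 CPM), and mouse 2 for Myl3 (74.0 CPM). Tamoxifen mouse 4 stood apart for Ldhd (59.2 CPM), Sfrp4 (5.49 CPM), Fhl2 (3.55 CPM), F830016B08Rik (0.401 CPM), Gdf11 (5.40 CPM) and Map1a (17.4 CPM). Among placebo mice, mouse 2 stood apart for Jsrp1 (448 CPM), and mouse 3 for Tnn (0.0453 CPM), Myl3 (5.21 CPM) and Alox12 (2.72 CPM). Placebo mouse 4 stood apart for BC023105 (341 CPM), Igtp (217 CPM), H2-K1 (560.2 CPM) and B2m (855.7 CPM).

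The effect of tamoxifen differed between Dnm2SL and WT mice, by the edgeR test of the difference, for 10 of the genes described. Given as the log2 fold change in Dnm2SL minus that in WT mice, the difference was 2.95 for Micall2, −1.37 for AC109619.1, −1.82 for Klf5, −5.11 for Mt3, −2.91 for Gdf11, −2.49 for Map1a, −3.11 for Msln, −1.98 for Mpzl3, −2.70 for Runx1 and −5.13 for Timp1.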

How the results depend on the processing

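Of the 81 called genes examined one by one, none changed direction in any alternative and 53 kept their call in every fit that left out 1 mouse. The cause of the shifts given here was not tested. Of the genes examined that were not called, 7 were called in at least 1 alternative: B2m, Chrnd, Greb1, H2-K1, Myh4, Pvalb and Runx1. The main count of 1277 was 814 with no filter on low counts, 481 with Xist as a covariate, 30 with only the 8 Dnm2SL mice, 1724 with only Dnm2SL mice without tamoxifen mouse 4, 2462 without both mice numbered 4 and 79 with only the 10 mice that carry Xist, and ran from 368 to 2562 when 1 mouse was left out. Replicate numbers did not pair the mice, since same-numbered mice had correlations of −0.0219, −0.160, −0.00688 and −0.164, and with a replicate block the count was 843, or 19 with only the 8 Dnm2SL mice. The 40 differences between genotypes became 322 with DESeq2, 20 with RLE scaling, 16 with the study's own count filter, 10 with a replicate block, 128 with Xist as a covariate and 7 without both mice numbered 4, and ran from 1 to 293 when 1 mouse was left out. The 464 genes called in Bin1KO mice became 1169 with DESeq2, 122 with only the 8 Bin1KO mice and 152 with a replicate block there, and ran from 160 to 1253. List members called, 80 in all, became 5 with only the 8 Dnm2SL mice, 6 with a block there, 50 with Xist, 104 with only Dnm2SL mice without tamoxifen mouse 4, 143 without both mice numbered 4 and 3 with only the mice that carry Xist, and ran from 44 to 137. The share of genes called higher with AGGTCA in a promoter was 7.67% on the plus strand alone. The difference in mitochondrial share, 0.348 percentage points, ran from −0.0830 to 1.08.

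Genes near 0 changed sign without being called. Esr1 was at 0.00857 with DESeq2, 0.00732 with RLE scaling, 0.00141 with no filter, 0.0130 with the study's filter, 0.0367 with 8 mice, 0.0116 with a block, 0.0346 with both, 0.104 with Xist and 0.0444 with only the mice that carry it. Dnm2 was at 0.00255 with the study's filter, 0.0280 with 8 mice, 0.0296 with a block there and 0.0311 with only Dnm2SL mice without tamoxifen mouse 4. Mtm1 was at −0.0437 without both mice numbered 4, −0.0840 with only the mice that carry Xist and −0.0493 with only Dnm2SL mice without tamoxifen mouse 4. Sln was at −0.0519 with Xist and −0.351 with only the mice that carry it. When 1 mouse was left out, Esr1 ran from −0.109 to 0.0724, Dnm2 from −0.0533 to 0.0197, Mtm1 from −0.0937 to 0.0788, Krt18 from −0.70 to 0.30 and Sln from −0.15 to 0.69.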

Other observations

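Lists not described above held few called genes, and leaving out 1 mouse moved some of these counts. Of 12 Schwann cell genes 1 was called higher and 1 lower (median −0.61), against 4 lower and none higher without placebo mouse 4 (median −0.81), and of 24 genes of the unfolded protein and integrated stress responses 1 was called lower (median 0.01). None was called among 14 endothelial genes (median 0.30), 11 of smooth muscle and pericytes (0.26), 12 of adipocytes (−0.09), 22 of atrophy and protein breakdown (−0.03), 25 of the cell cycle (0.19), 19 of the circadian clock (0.01), 7 erythroid genes (1.18) or 3 tested neutrophil and marrow genes (0.29). Without tamoxifen mouse 4, 5 smooth muscle and pericyte genes were called higher and 1 lower, 3 genes of atrophy and protein breakdown lower, and 1 endothelial and 1 circadian gene higher, and 2 stress response genes were called higher and 2 lower. Without placebo mouse 4, 3 cell cycle genes were called higher. Over all genes 5.22% were called higher and 3.05% lower in the main fit. These shares were 10.2% and 6.18% without tamoxifen mouse 4, and 3.23% and 1.68% without placebo mouse 4. At an unadjusted p under 0.05, 1928 of all genes tested were higher and 1999 lower by edgeR. The erythroid genes summed to between 350 and 866 CPM in placebo mice and to 635, 939, 1357 and 2025 CPM in tamoxifen mice, and hemoglobin genes can share reads.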
